A study of Homo sapiens with 6 samples.

Results

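The genes described here encode the machinery that copies DNA: 47 genes taken by name, all of them present among the 58735 genes of the count table and all of them among the 17743 genes that passed the filter on low counts. They cover 11 roles. Among these are the origin recognition complex, licensing factors and geminin, the MCM2-7 helicase, helicase activation, primase and polymerase alpha, and polymerases delta and epsilon. The others are the sliding clamp and its loader, single-strand binding, Okazaki fragment maturation, nucleotide supply, and chromatin behind the fork. RNA was sequenced from Het1A, a line derived from human oesophageal epithelium and immortalised with SV40 large T antigen, with or without brief daily exposure to bile acids in acid medium. Cells of the 3 bile acid libraries had met medium of pH 4.0 with 100 µM of 5 mixed bile acids (glycocholic, taurocholic, glycodeoxycholic, glycochenodeoxycholic and deoxycholic acid) for 10 min on each of 5 days. Cells of the 3 control libraries had met 0.1% DMSO, and the labels do not say that this medium was acidified, so acid and bile acids cannot be told apart. Medium held 1% serum throughout, beginning 48 h ahead of treatment, and harvest followed the last exposure by 24 h. The labels call the libraries biological replicates without saying how cultures were separated. The p-values of genes and of ratios therefore measure the spread between these libraries.

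Replication starts at origins, where the origin recognition complex, CDC6 and CDT1 load the MCM2-7 helicase in G1. In S phase CDC45 and the GINS complex switch that helicase on, polymerase alpha with primase lays down primers, and polymerases delta and epsilon extend them with the clamp PCNA. Many of these genes are transcribed at the passage from G1 to S under E2F factors, which RB proteins hold in check, and large T antigen, carried by the line in both groups, binds RB proteins. In an epithelium such as that of the oesophagus these genes are known as marks of dividing cells.

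The cells did not show the defining markers of squamous epithelium: KRT13, KRT4 and IVL had 0 counts in every library, KRT5 had 1 to 6 counts in bile acid and 0 to 12 counts in control libraries, and TP63 had at most 2. Of 10 squamous markers 2, KRT6A and KRT17, passed the filter, and their list summed to 46.7 to 144 CPM in bile acid and 51.5 to 141 CPM in control libraries. Of 8 general epithelial markers 7 passed, and KRT8, KRT18, KRT19, EPCAM, CDH1 and ESRP1 were present. The list summed to 1002 to 1138 CPM in bile acid and 760 to 1626 CPM in control libraries, with control 2 the highest. Of 7 leukocyte markers 3, CD14 among them, passed, and the list summed to 13.1 to 17.1 CPM in bile acid and 10.4 to 13.9 CPM in control libraries, with PTPRC, CD3E and LYZ at 0 in every library. Of 5 endothelial markers KDR passed, the list summed to 1.07 to 1.95 CPM in bile acid and 0.336 to 2.12 CPM in control libraries, and CDH5 was at 0 in every library. Of the mesenchymal markers 4 of 8 passed, summing to 317 to 446 CPM in bile acid and 191 to 361 CPM in control libraries. The part of these markers in the results was not tested. Total counts were 27008714 to 28497721 in the bile acid and 21006677 to 26218597 in the control libraries. Control library 2 stood apart: 1 count or more was found for 19101 genes, against 24174 to 25337 genes in the other 5 libraries, and it lay at 145 on a first principal component that held 73.1% of the variance, with the others between −44.0 and −6.89. Fold changes of the members are therefore also given without it.

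The upstream sequences of MCM6 and RRM1 are shown because in these genes all 3 bile acid libraries were above all 3 controls in CPM. For RRM1 the groups overlap on the deposited FPKM. A further reason is that 1 of them carries letters that E2F factors bind and the other does not. They come from the RefSeq promoter table (GRCh38.p14) and run 5′ to 3′ on the strand of the gene, over the bases upstream of its start that hold no annotated exon. Capitals mark TTTGGCGC and its overlapping partner GCGCGAAA, the reverse complement of TTTCGCGC, in MCM6, and CCAAT or its complement ATTGG in both. MCM6 lies on the minus strand at chr2:135876444-135876643 and RRM1 on the plus strand at chr11:4094485-4094684.
MCM6: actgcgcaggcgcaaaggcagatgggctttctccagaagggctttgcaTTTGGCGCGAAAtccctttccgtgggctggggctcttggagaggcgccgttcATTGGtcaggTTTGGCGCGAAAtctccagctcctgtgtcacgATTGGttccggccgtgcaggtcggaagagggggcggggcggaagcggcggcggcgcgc
RRM1: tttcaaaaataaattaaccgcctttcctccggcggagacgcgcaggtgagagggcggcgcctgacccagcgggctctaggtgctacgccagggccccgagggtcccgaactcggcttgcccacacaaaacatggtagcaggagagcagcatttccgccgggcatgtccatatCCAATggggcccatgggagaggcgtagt
Windows from 250 bases before to 50 after the start were available for 41 of the 47 genes, not for MCM4, MCM5, GINS4, POLD3, RPA2 and RPA3. An E2F-type word (TTTCCCGC, TTTCGCGC, TTTGCCGC or TTTGGCGC, on either strand, overlaps allowed) stood in 20 of the 41, or 48.8%, against 6.39% of 11877 tested genes with a window and 3.31% of 35116 windows in all. CCAAT or ATTGG stood in 25, or 61.0%, against 42.3% and 34.6%. RFC3 and TYMS hold 1 E2F-type word each, and RPA1 none but 2 CCAAT. The 20 genes with an E2F-type word had a median log2 fold change of 0.06, and the 21 genes without one had a median of −0.08, or 0.11 and −0.00 without control 2. A match is a run of letters and not a shown binding site.

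The replication genes were well expressed, at a median percentile of 88.2 by control FPKM among all tested genes, and with all 6 libraries no member passed the test between bile acid and control cells. On the deposited FPKM scale, which divides by gene length, their mean level ran between 3.84 (GINS4) and 148 (PCNA) in bile acid cells, and between 3.09 (GINS4) and 164 (PCNA) in control cells. PCNA is the clamp that holds polymerases on DNA. The highest levels after it in bile acid cells were those of CDT1 (112 FPKM in bile acid, 142 in control cells), MCM3 (110 in bile acid, 113 in control cells) and FEN1 (83.3 in bile acid, 80.8 in control cells). In control cells POLD2, at 87.6 FPKM, lay between MCM3 and FEN1. The median over the 47 genes was 20.5 FPKM in bile acid and 22.8 FPKM in control cells. Summed over all members, the libraries held 6929, 7104 and 6985 TMM-scaled CPM (counts scaled to a common library total with the TMM factor) after bile acids, against 6385, 8746 and 6765 CPM in controls. The 3 bile acid sums lie within the range of the 3 control sums, and control 2 holds the highest of the 6. In bulk RNA a changed share of cells in S phase and changed RNA of these genes per cell cannot be told apart.

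**Figure D1:**
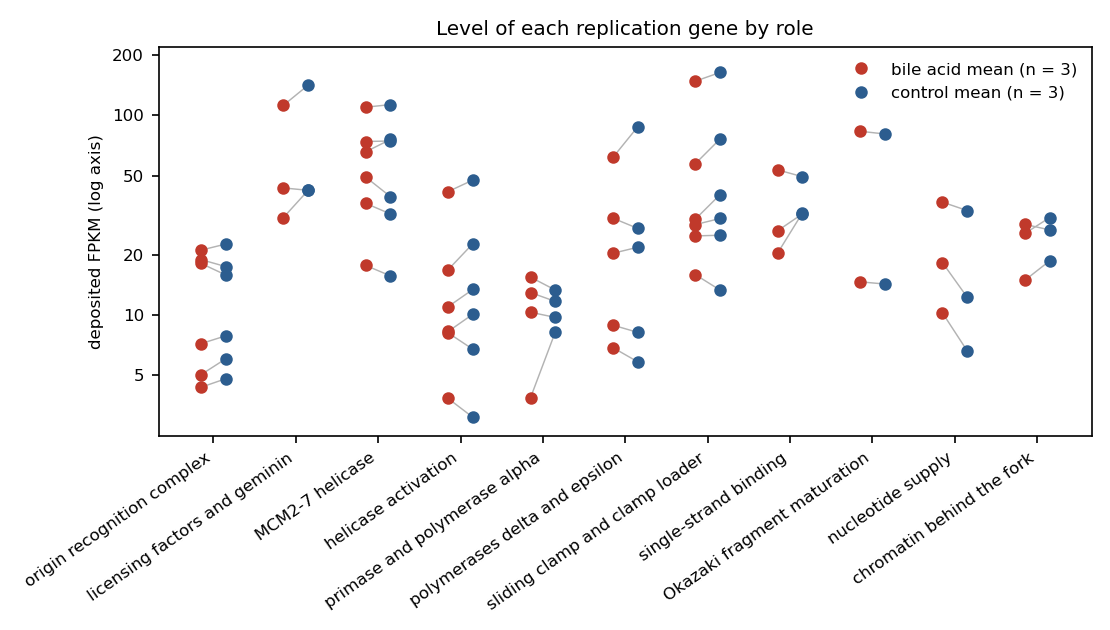
Mean deposited FPKM of each replication gene (log axis) in bile acid and control libraries, by role, with a grey line joining the pair of means of each gene. Levels run between 3.84 and 148 FPKM in bile acid cells and between 3.09 and 164 FPKM in control cells, and most lines are close to level, with POLA2 the steepest.

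With edgeR's quasi-likelihood test and Benjamini-Hochberg adjustment over all 17743 genes, 0 genes were called (0.0%), and so were 0 of the 47. At an unadjusted p under 0.05, edgeR passed 588 genes (3.31%) and 0 members, whose p ran between 0.0992 (RRM2) and 0.943. DESeq2 called 19 genes (0.107%) and 0 members, limma-voom called 0 genes (0.0%) and 0 members, and neither put a member under an unadjusted p of 0.05. In the authors' deposited table the 47 genes also had 0 calls, log2 fold changes between −1.04 and 0.66 and a lowest adjusted p of 0.977. The edgeR log2 fold changes of bile acid over control ran between −1.08 (POLA2) and 0.65 (RRM2), with 24 above and 23 below 0. Their median was 0.01, beside −0.01 over all genes tested.

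Leaving out control 2 narrowed the spread and put 32 members above 0 and 15 below it. The median log2 fold change was then 0.08 beside 0.00 over all genes. Control 1 minus control 3 had a member median of −0.11 in log2 CPM, larger in size than this 0.08. Set against the mean of controls 1 and 3, bile acid libraries 1, 2 and 3 had member medians of 0.01, 0.11 and 0.03. In 18 members the sign of the fold change differed without control 2. edgeR then called 1 gene of 18274 (0.00547%) and 0 members, and at an unadjusted p under 0.05 it passed 1459 genes (7.98%) and 2 members, RRM2 and FEN1. DESeq2 without control 2 called 158 genes (0.865%) and 1 member, RRM2. Without control 2, 45 members were under 0.3 in size, beside 69.3% of all genes. These 45 lay between −0.17 and 0.29, so the highest is just under that line. The 2 members beyond it were RRM2 and FEN1. With all 6 libraries 34 members were under 0.3 in size, beside 56.2% of all genes. The members are well expressed, and no comparison was made with genes of like expression.

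The interval of each difference says how large a change these libraries leave possible. With all 6 libraries the 95% interval of the log2 fold change stayed within a halving and a doubling (−1 to 1) for 36 members, and reached beyond it for 11, with bounds as wide as −2.66 (POLA2) and 1.51 (MCM2). Without control 2 it stayed within those limits for 46 members, and only that of RRM2 reached beyond a doubling, between 0.42 and 1.55. For the other 46 the bounds then ran between −0.47 and 0.83. The standard error of a member's log2 fold change had a median of 0.22 with all libraries and 0.14 without control 2.

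**Figure D2:**
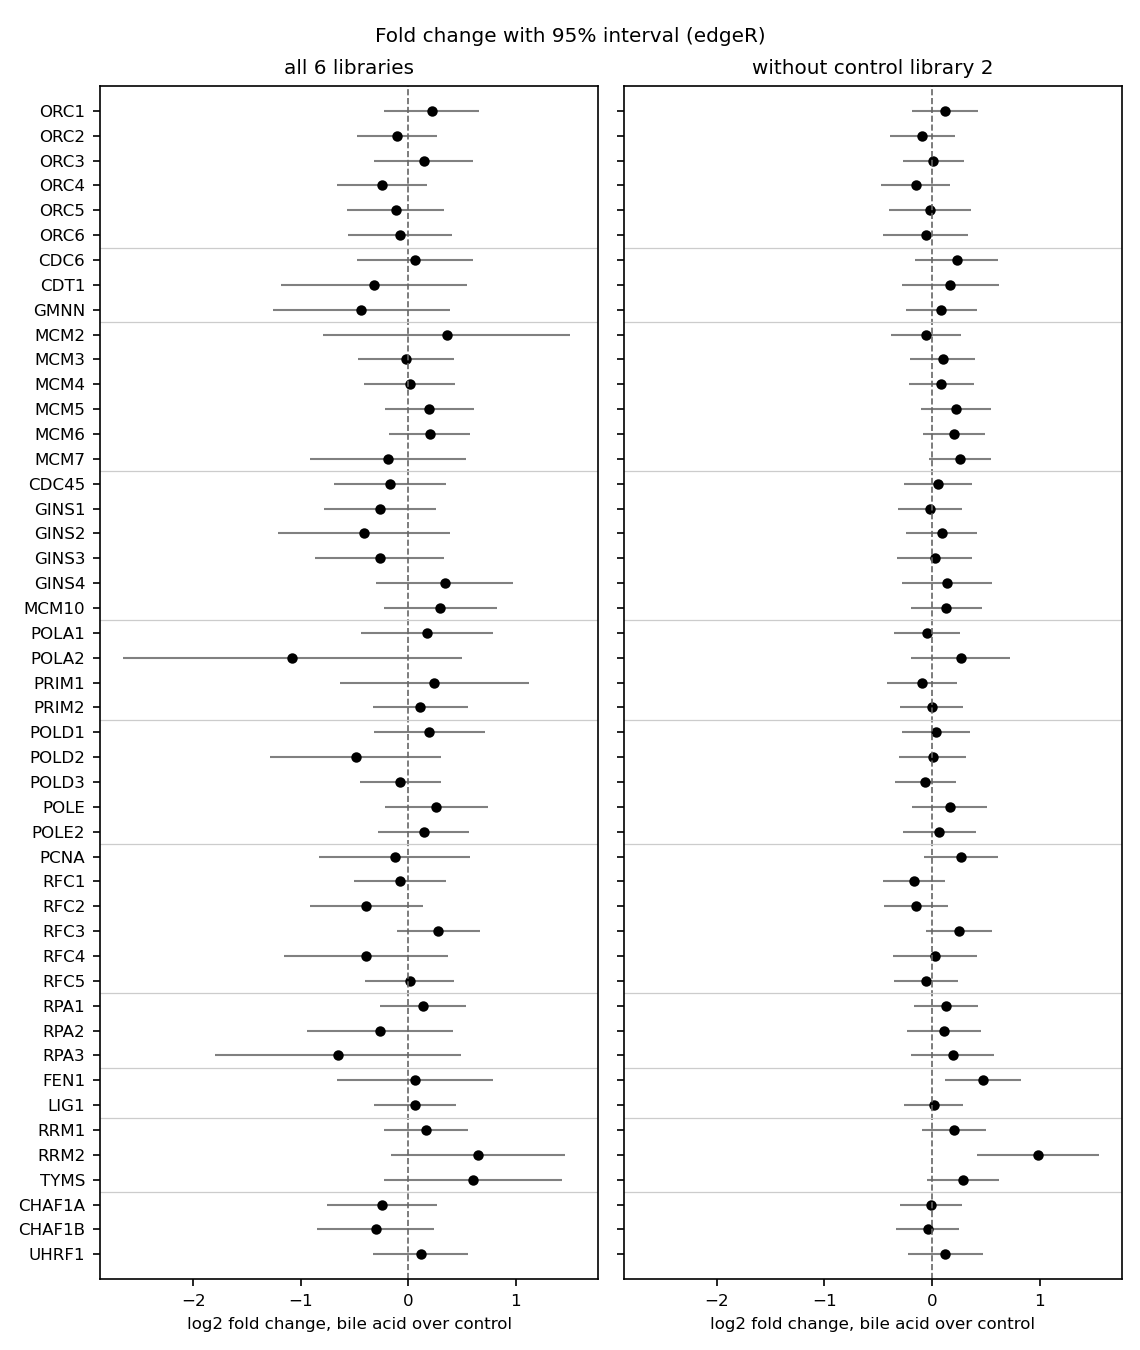
Log2 fold change of bile acid over control for the 47 replication genes (points) with its 95% interval (lines) from edgeR, with all 6 libraries on the left and without control library 2 on the right, grouped by role. With all libraries the values spread between −1.08 and 0.65, and without control 2 all but RRM2 and FEN1 lie between −0.17 and 0.29.

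Control 2 lay farther from the other controls than any bile acid library did over these genes. Measured as log2 CPM minus the mean of controls 1 and 3, control 2 ran between −2.08 (MCM2) and 2.49 (POLA2). Its SD was 0.83 over the 47 genes beside 1.32 over all genes tested. In control 2 11 members (23.4%) lay more than 1 away, beside 36.1% of all genes. In bile acid libraries 1, 2 and 3 the same SD was 0.30, 0.20 and 0.17 over members, beside 0.54, 0.48 and 0.45 over all genes. Controls 1 and 3 differed from each other with an SD of 0.18 over members, beside 0.47 over all genes. No member differed between these 2 controls by more than 0.5, beside 17.8% of all genes. Control 2 was the highest of the 6 libraries in 21 members and the lowest in 17, so that it was at an end in 80.9% of members beside 78.2% of all genes. Across the 47 genes its distance had a Spearman rho of −0.24 with gene length, beside −0.33 across the 17743 genes tested, where all genes share 1 library. With the length trend removed from the fold changes 0 members were called. Over the other 5 libraries the SD of log2 CPM had a median of 0.13 in members beside 0.23 in all genes. Members stood at a median percentile of 88.2 by control FPKM, and no set of genes of like level was compared. Whether their smaller spreads go with level was not tested.

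**Figure D3:**
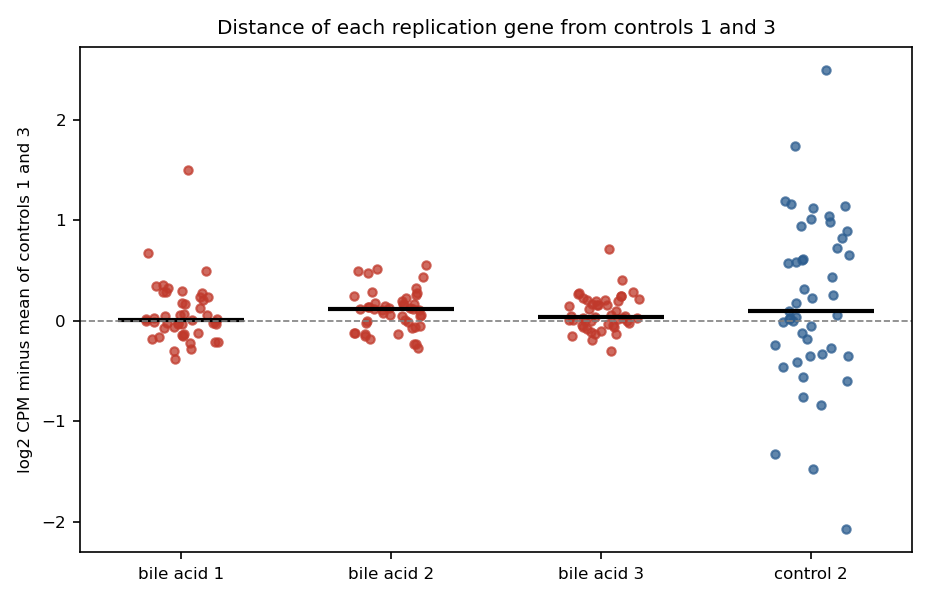
Log2 CPM of each of the 47 replication genes minus its mean in controls 1 and 3, for bile acid libraries 1 to 3 and control library 2 (points, spread sideways for visibility), with the median as a bar. Bile acid points gather near 0 apart from RRM2 in library 1, at 1.50, while control 2 reaches −2.08 and 2.49.

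The origin recognition complex marks the sites where replication can start. ORC1, its cell-cycle regulated subunit, had 60.9, 68.2 and 73.0 CPM after bile acids against 64.8, 48.9 and 60.2 CPM in controls, the highest fold change of the complex (log2 0.22 ± 0.19, SE, edgeR adjusted p = 0.911, and log2 0.12 without control 2). The groups overlap, since bile acid 1 lies below control 1. ORC4 had 50.9, 59.5 and 48.0 CPM after bile acids against 59.5, 69.0 and 58.8 CPM in controls, the lowest fold change of the complex (log2 −0.24 ± 0.18, and −0.15 without control 2). Bile acid 2 lies within the range of the controls. ORC2, ORC3, ORC5 and ORC6 had log2 fold changes of −0.11, 0.14, −0.12 and −0.08, or −0.09, 0.01, −0.02 and −0.06 without control 2. The median of the 6 subunits was −0.09, or −0.04 without control 2. The ratio of ORC1 to ORC2 within a library was 1.16, 1.43 and 1.51 after bile acids, against 1.18, 0.911 and 1.18 in controls. Bile acid 1 lies below controls 1 and 3, and the difference of log2 0.33 had p = 0.3 in a two-sided exact permutation test (0.45 adjusted over 3 ratios), a test that cannot go below 0.1 with 3 against 3 libraries.

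Licensing depends on CDC6 and CDT1, which bring the helicase to origins, and on geminin (GMNN), which binds CDT1 and blocks relicensing. CDC6 had 341, 273 and 235 CPM after bile acids against 225, 328 and 262 CPM in controls (log2 0.06 ± 0.23, and 0.23 without control 2). Bile acid 1 is the highest of the 6 libraries and control 1 the lowest, and the groups overlap. CDT1 had 320.1, 549 and 451 CPM after bile acids against 381, 858 and 407 CPM in controls (log2 −0.32 ± 0.37), and GMNN had 94.7, 91.2 and 82.9 CPM after bile acids against 74.3, 193 and 96.0 CPM in controls (log2 −0.44 ± 0.35). In both genes control 2 is far above the rest, and without it the values were 0.17 and 0.08. The ratio of CDT1 to GMNN was 3.38, 6.02 and 5.44 after bile acids against 5.13, 4.44 and 4.24 in controls, where bile acid libraries hold both the lowest and the highest value (difference of log2 0.07, p = 0.9, two-sided exact permutation test, 0.9 adjusted over 3 ratios).

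The 6 MCM subunits form the ring that unwinds DNA. MCM6 had 176, 166 and 184 CPM after bile acids against 156, 152 and 150.5 CPM in controls, and all 3 bile acid libraries lie above all 3 controls (log2 0.20 ± 0.16, edgeR adjusted p = 0.911). Its 95% interval ran between −0.18 and 0.58, and the fold change was 0.20 without control 2 as well. MCM2 had 295, 245 and 307 CPM after bile acids against 309.8, 70.0 and 282 CPM in controls, the highest fold change of the ring (log2 0.36 ± 0.49). Control 2 alone lies apart, and without it the value was −0.06. MCM7 had 348, 337 and 330.5 CPM after bile acids against 283, 587 and 288 CPM in controls, the lowest fold change of the ring (log2 −0.19 ± 0.31). Again control 2 lies apart, on the other side: without it the bile acid libraries are all above the controls, with a log2 fold change of 0.26 ± 0.13 and an unadjusted p of 0.0756 in edgeR's quasi-likelihood test. The subunits of this ring, which work in equal numbers, thus had fold changes of both signs with all libraries. MCM3, MCM4 and MCM5 had log2 fold changes of −0.02, 0.01 and 0.20, or 0.10, 0.08 and 0.22 without control 2. The median of the ring was 0.10, or 0.15 without control 2.

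Helicase activation needs CDC45, the GINS subunits and MCM10. GINS4 had 27.4, 19.9 and 26.7 CPM after bile acids against 20.8, 13.3 and 24.3 CPM in controls (log2 0.34 ± 0.27, and 0.14 without control 2), the highest of these genes, with overlapping groups. GINS2 had 58.6, 74.1 and 61.7 CPM after bile acids against 64.9, 137 and 57.9 CPM in controls (log2 −0.42 ± 0.34), the lowest, and 0.09 without control 2. These 2 subunits belong to 1 complex, and control 2 was the lowest library for GINS4 and the highest for GINS2. CDC45, GINS1, GINS3 and MCM10 had log2 fold changes of −0.17, −0.27, −0.27 and 0.30, or 0.06, −0.02, 0.02 and 0.13 without control 2. The median of the 6 genes was −0.22, or 0.07 without control 2.

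**Figure D4:**
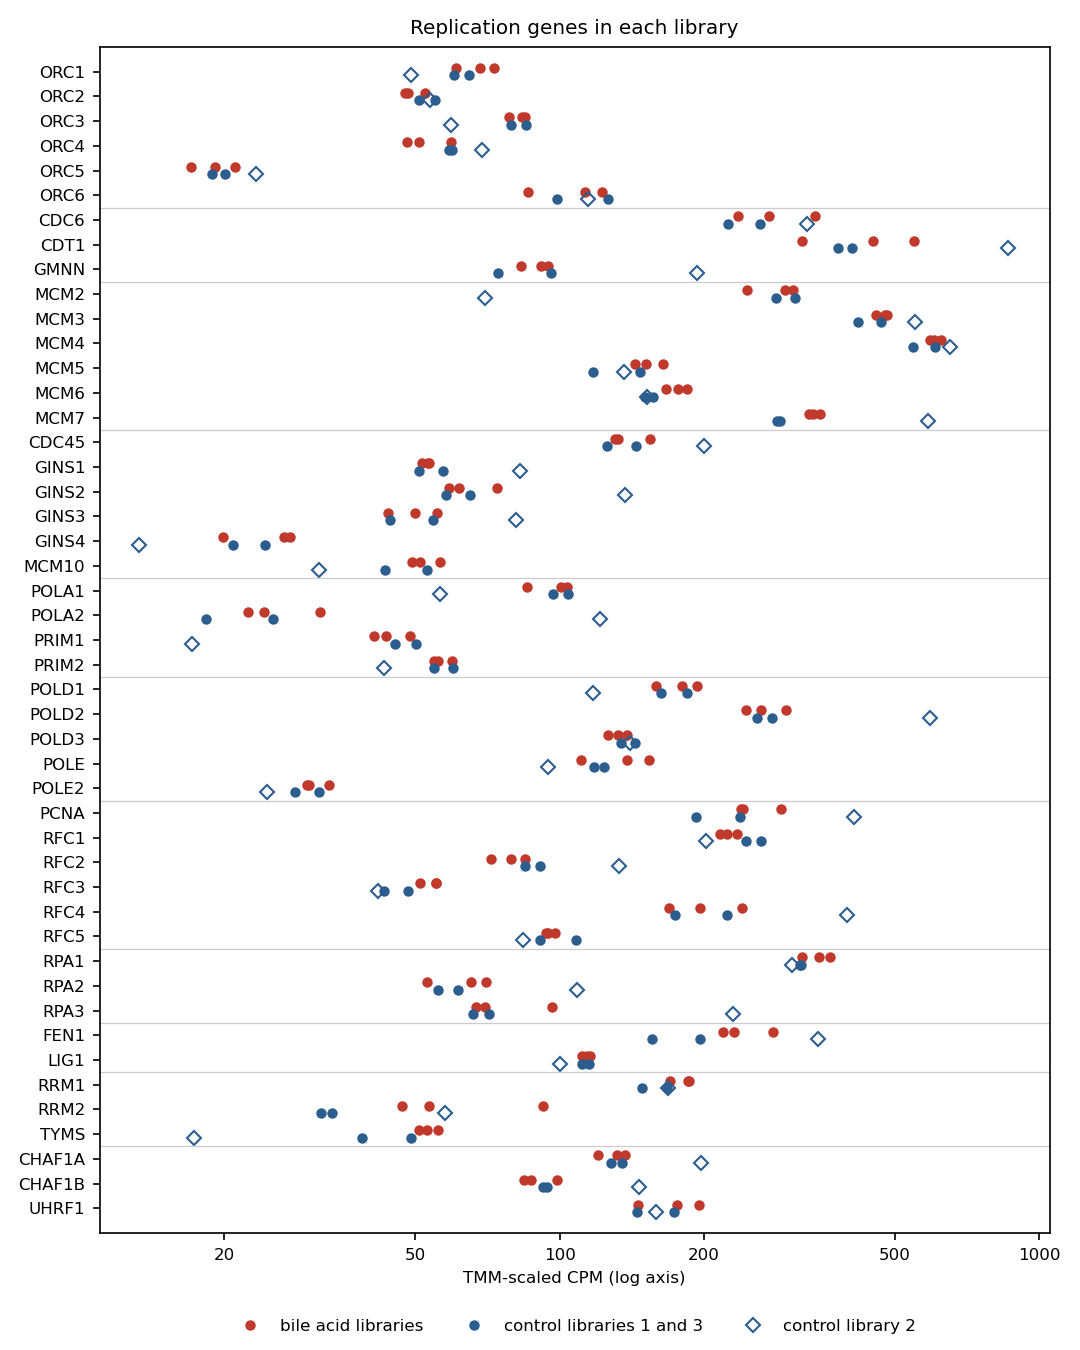
TMM-scaled CPM (log axis) of the 47 replication genes in each library, bile acid libraries in red above the control libraries in blue, with control library 2 as an open diamond and lines parting the roles. The 3 bile acid libraries and controls 1 and 3 lie close together in nearly every gene, and the open diamond is the highest of the 6 libraries in 21 genes and the lowest in 17.

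Primase and polymerase alpha lay down the RNA-DNA primers. POLA2, the regulatory subunit of polymerase alpha, had 22.4, 31.6 and 24.1 CPM after bile acids against 18.3, 122 and 25.2 CPM in controls (log2 −1.08 ± 0.67, edgeR adjusted p = 0.911). Control 2 is several times above the other 5 libraries, which span 18.3 to 31.6 CPM, and without it the fold change was 0.27 ± 0.21. PRIM1, the catalytic subunit of primase, had 41.0, 43.4 and 48.7 CPM after bile acids against 45.3, 17.1 and 50.1 CPM in controls (log2 0.24 ± 0.38), where control 2 is the lowest, and −0.09 without it. POLA1 and PRIM2 had log2 fold changes of 0.17 and 0.11, or −0.05 and −0.00 without control 2. Exons of other annotated genes cover 35.1% of POLA2, 21.6% of PRIM1, 23.6% of MCM2, 23.6% of GINS4, 10.9% of GINS3 and 10.6% of RFC5. The gene with the largest overlap lies on the same strand for POLA2 and PRIM1, where strand cannot part the reads. For MCM2, GINS4, GINS3 and RFC5 it lies on the other strand, and the sources used here do not say whether counting used strand. All of these values are therefore uncertain.

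Polymerases delta and epsilon copy the lagging and the leading strand. POLE, the catalytic subunit of polymerase epsilon, had 154, 111 and 138 CPM after bile acids against 118, 94.7 and 124 CPM in controls (log2 0.26 ± 0.21, and 0.16 without control 2), with bile acid 2 below controls 1 and 3. POLD2, a small subunit of polymerase delta, had 244, 296 and 262 CPM after bile acids against 277, 591 and 258 CPM in controls (log2 −0.49 ± 0.34), and without control 2, the highest library, the value was 0.01. POLD1, POLD3 and POLE2 had log2 fold changes of 0.20, −0.08 and 0.14, or 0.04, −0.06 and 0.07 without control 2. The median of the 5 genes was 0.14, or 0.04 without control 2.

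The clamp PCNA is loaded by replication factor C, which RFC1 to RFC5 make up. RFC3 had 55.2, 51.2 and 55.3 CPM after bile acids against 43.0, 41.8 and 48.4 CPM in controls (log2 0.28 ± 0.16, edgeR adjusted p = 0.911), and all bile acid libraries lie above all controls, with a log2 fold change of 0.25 without control 2. RFC2 was the single member with every bile acid library below every control, at 72.0, 84.5 and 79.0 CPM after bile acids against 84.5, 133 and 90.9 CPM in controls (log2 −0.39 ± 0.22, and −0.15 without control 2). The highest bile acid and the lowest control library of RFC2 are level to 3 digits, and the separation was lost with RLE scaling. RFC4 had 169, 239.5 and 196 CPM after bile acids against 174, 398 and 223 CPM in controls (log2 −0.39 ± 0.33), and 0.03 without control 2. PCNA had 241, 289.7 and 238 CPM after bile acids against 192, 409.7 and 237 CPM in controls (log2 −0.13 ± 0.30), and 0.26 ± 0.16 without control 2. RFC1 and RFC5 had log2 fold changes of −0.08 and 0.01, or −0.17 and −0.05 without control 2. The median of the 6 genes was −0.10, or −0.01 without control 2.

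Replication protein A coats single-stranded DNA as a trimer of RPA1, RPA2 and RPA3. RPA1 had 320.0, 347 and 365 CPM after bile acids against 318, 305 and 316 CPM in controls (log2 0.14 ± 0.17). Its bile acid libraries all lie above the controls, though by under 2 CPM at the nearest point. RPA2 had 52.8, 70.1 and 65.4 CPM after bile acids against 61.4, 109 and 55.8 CPM in controls (log2 −0.26 ± 0.29), and RPA3 had 67.0, 96.5 and 69.9 CPM after bile acids against 66.1, 229.5 and 71.2 CPM in controls (log2 −0.65 ± 0.49). Control 2 is the highest library of both, and without it they had 0.11 and 0.19, close to the 0.13 of RPA1.

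Okazaki fragments are trimmed by the flap nuclease FEN1 and joined by the ligase LIG1. FEN1 had 278, 218 and 231 CPM after bile acids against 156, 345 and 196 CPM in controls (log2 0.06 ± 0.31, edgeR adjusted p = 0.975). All bile acid libraries lie above controls 1 and 3 and below control 2. Without control 2 the log2 fold change of FEN1 was 0.47 ± 0.16, with an unadjusted p of 0.0142 and an adjusted p of 0.502 in edgeR and an adjusted p of 0.269 in DESeq2. LIG1 had 114, 111 and 115 CPM after bile acids against 115, 100.0 and 111 CPM in controls (log2 0.06 ± 0.16), and 0.01 without control 2, with the 5 other libraries between 111 and 115 CPM.

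Nucleotide supply was the role with the highest median, 0.60 over 3 genes, or 0.29 without control 2. RRM2, the small and cell-cycle regulated subunit of ribonucleotide reductase, had 92.4, 46.8 and 53.5 CPM after bile acids against 33.5, 57.6 and 31.8 CPM in controls (log2 0.65 ± 0.34, edgeR adjusted p = 0.911). Bile acid 1 is far above the other 2 bile acid libraries, and control 2 lies above both of these. Without control 2 the log2 fold change of RRM2 was 0.99 ± 0.26, with an unadjusted p of 0.003 and an adjusted p of 0.347 in edgeR, while DESeq2 called it (adjusted p = 0.0274). Without bile acid 1, and with control 2 kept, it was 0.30 in edgeR. The large subunit RRM1 had 185, 170.0 and 186 CPM after bile acids against 149, 168 and 167 CPM in controls. Its log2 fold change was 0.16 ± 0.17, or 0.20 without control 2. All its bile acid libraries lie above all controls, though bile acid 2 only narrowly above control 2. On the deposited FPKM the groups of RRM1 overlap, with 34.6 in bile acid 2 and 34.9 in control 3. The ratio of RRM2 to RRM1 was 0.499, 0.275 and 0.287 after bile acids against 0.226, 0.342 and 0.190 in controls (difference of log2 0.47, p = 0.3, two-sided exact permutation test, 0.45 adjusted over 3 ratios), where control 2 again lies above 2 bile acid libraries. TYMS, which makes thymidylate, had 55.9, 50.8 and 52.9 CPM after bile acids against 38.7, 17.3 and 49.0 CPM in controls (log2 0.60 ± 0.35, edgeR adjusted p = 0.911). All bile acid libraries of TYMS lie above all controls, and without control 2, its lowest library, the fold change was 0.29 ± 0.15. Exons of ENOSF1, on the other strand, cover 46.6% of TYMS, and those of AC007240.1, on the same strand, cover 20.2% of RRM2, so both values are uncertain.

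**Figure D5:**
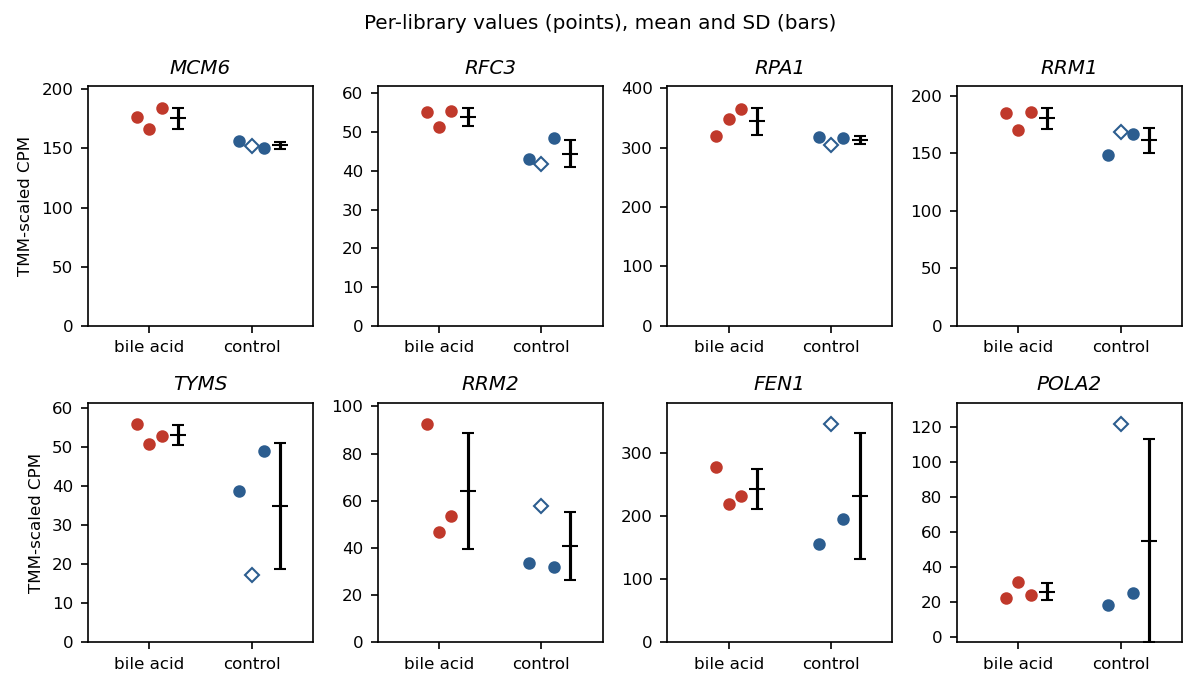
TMM-scaled CPM of 8 replication genes in each bile acid library (red, left) and each control library (blue, right, control 2 as an open diamond), with the mean and SD of each group in black (n = 3 each). In MCM6, RFC3, RPA1, RRM1 and TYMS every bile acid point is above every control point, and in RRM2, FEN1 and POLA2 the open diamond is the highest control.

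Chromatin is rebuilt behind the fork by CAF-1, of which CHAF1A and CHAF1B are subunits, and UHRF1 helps restore DNA methylation. CHAF1A had 137, 131 and 120.3 CPM after bile acids against 128, 197 and 135 CPM in controls (log2 −0.24 ± 0.22), and CHAF1B had 84.2, 98.5 and 87.1 CPM after bile acids against 94.1, 146 and 92.2 CPM in controls (log2 −0.30 ± 0.23). Control 2 is the highest library of both, and without it they had −0.01 and −0.04. UHRF1 had 195, 146 and 176 CPM after bile acids against 173, 159 and 145 CPM in controls (log2 0.12 ± 0.19, and 0.12 without control 2 as well), with overlapping groups. The median of the 3 genes was −0.24, or −0.01 without control 2.

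Counted by separation alone, 5 members (MCM6, RFC3, RPA1, RRM1 and TYMS, or 10.6%) had every bile acid library above every control, where 939 of all genes (5.29%) did, and 1 member (RFC2, 2.13%) had every one below, where 868 genes (4.89%) did. Without control 2 these were 9 members (19.1%), with MCM7, PCNA, FEN1 and RRM2 added, where 2147 genes (12.1%) were above, and 2 members (RFC1 and RFC2, 4.26%), where 2245 genes (12.7%) were below. On the deposited FPKM 3 members, MCM6, RFC3 and TYMS (6.38%), lay above, where 4.32% of all genes did, and 2 members, ORC4 and RFC2 (4.26%), lay below, where 5.98% did. The members' shares above were higher than those of all genes and their shares below were lower on each of these 3 counts. The 3 counts share libraries and so do not repeat each other. They rest on few genes, and no test was made of either direction.

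Other genes of the same processes were read from lists taken by function, with 0 genes called in any list by edgeR or DESeq2 on all libraries. The 34 further replication genes had a median log2 fold change of 0.01 (−0.03 without control 2) and 1 gene at an unadjusted p under 0.05, TOP1, a topoisomerase that relieves torsion ahead of the fork. TOP1 had 314, 147 and 242 CPM after bile acids against 145, 60.6 and 143 CPM in controls (log2 1.01 ± 0.41, edgeR adjusted p = 0.911, and log2 0.71 without control 2), all bile acid libraries above all controls, though bile acid 2 by under 2 CPM. At the other end were POLE4 (log2 −0.90) and RNASEH2A (−0.64), and DNA2 had 0.37. Without control 2 these were −0.00, 0.21 and 0.08. The 16 further nucleotide genes had a median of −0.03 (0.16 without control 2), with NME1 (−1.10) and DTYMK (−0.83) lowest and SAMHD1 (0.49) highest. The 15 further chromatin genes had a median of −0.03 (0.02 without control 2), with SSRP1 (−0.44) and NASP (−0.29) lowest and ATAD2 (0.20) and DNMT1 (0.26) highest. Without control 2 NME1 had 0.43, DTYMK 0.01, SAMHD1 0.57, SSRP1 −0.09, NASP 0.20, ATAD2 −0.07 and DNMT1 −0.04. At an unadjusted p under 0.05 edgeR passed 0 genes of these last 2 lists. Over all genes tested it passed 3.31%, beside 1 of the 34 further replication genes.

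Regulators of the G1 to S passage and mitotic genes had medians above 0 with and without control 2. The 31 E2F and G1/S regulators had a median log2 fold change of 0.21 (0.14 without control 2), with 20 above 0, 1 at an unadjusted p under 0.05, 9 with every bile acid library above every control and 0 with every one below, where 5.29% and 4.89% of all genes were. CCND1, the cyclin D1 gene, had 69.7, 20.8 and 36.6 CPM after bile acids against 19.1, 14.7 and 15.0 CPM in controls (log2 1.38 ± 0.42, edgeR adjusted p = 0.911, and log2 1.32 without control 2). CDKN1A, the gene of the inhibitor p21, had 185, 89.4 and 87.0 CPM after bile acids against 75.0, 75.7 and 67.8 CPM in controls (log2 0.73 ± 0.32, and 0.76 without control 2). In CCND1, CDKN1A, RRM2 and TOP1 alike bile acid 1 is the highest of the 6 libraries. CCNE1 (log2 −0.66) and CDKN2D (−0.57) were the lowest of this list, at 0.08 and −0.08 without control 2. The 24 genes of G2 and mitosis had a median of 0.23 (0.20 without control 2), with 17 above 0, 1 at an unadjusted p under 0.05, TTK (log2 0.50 ± 0.18), and 5 with every bile acid library above every control. BUB1B (0.53) was the highest of these, and BIRC5 (−0.54) and AURKB (−0.37) were the lowest. Without control 2 TTK had 0.41, BUB1B 0.19, BIRC5 0.08 and AURKB 0.22. With all libraries edgeR passed 3.31% of all genes at an unadjusted p under 0.05, beside 1 of 31 and 1 of 24 here. Whether the medians of these lists differ from that of the replication genes was not tested.

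The authors' deposited table of Gene Ontology terms, which rests on the same libraries, lists regulation of DNA replication with a normalized enrichment score of 1.55 (term size 125, adjusted p = 0.0113), and MCM5, MCM6 and RFC3 stand in its core genes. The authors' deposited table gives the passage from G1 to S in mitotic cells a score of 2.04 (term size 205, adjusted p = 1.2e-07), with POLE, RRM1 and RRM2 in its core. The authors' deposited table gives positive regulation of DNA replication a score of 1.78 (term size 43, adjusted p = 0.0114), with 0 of the 47 genes in its core. Whether these p-values of terms reflect the spread between libraries was not tested. In the authors' comparison of single genes the lowest adjusted p of the 47 was 0.977.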

How the data were processed

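RNA of 6 Het1A libraries was sequenced with paired 150 bp reads, per the labels' protocols. The submitters' processing notes list the tools HISAT2 2.0.5, featureCounts and DESeq2 and the build GRCh38, with no roles. All gene coordinates (100%) match GENCODE 29. Strand use in counting was not given in the sources used here. The authors deposited whole-number read counts per gene, FPKM (scaled to gene length and fragments per library) and normalized counts, a signal that equals whole reads over 1 size factor per library for 100% of values within 0.001. Per the file headers, the authors' comparison gives log2 fold changes and p-values, and their table of terms gives a score, a p-value and the other value term size.

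The counts were tested with edgeR 4.0.16 (R 4.3.3): TMM, filterByExpr, the quasi-likelihood test, no covariates, and Benjamini-Hochberg adjusted p under 0.05 over all genes. The SE is the log2 fold change over the root of F. The 95% intervals use the t distribution with edgeR's total (residual and prior) degrees of freedom. On simulated counts of 17743 genes, edgeR recovered 5% of 2-fold and 78% of 4-fold changes with 4 false calls. Ratios within a library were tested by exact permutation over libraries (SciPy 1.17.1). Alternatives were DESeq2 1.42.0, limma-voom 3.58.1, RLE and upper-quartile scaling, no filter, 1 CPM in 3 libraries, each library left out, a replicate block, removal of the length trend (lowess span 0.3), limma on log2(FPKM + 1) and log2(FPKM + 0.1) at a mean FPKM of at least 0.5, the recovered reads, and DESeq2 without control 2; the last 2 were chosen after seeing the data.

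Members, gene lists and motifs were chosen with earlier results of these data known. Values in every library are given for the members with the highest and lowest log2 fold change in each role, for all members of roles of 3 or fewer and for those whose groups do not overlap; PCNA was added after its values were seen. From each related list the 2 highest and 2 lowest genes are named, except 1 gene that is not reported here.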

Additional observations from a re-analysis of the deposited data

How the results depend on the processing

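With every alternative on all 6 libraries the replication genes had 0 calls. DESeq2 called 19 genes in all, and leaving out single libraries in edgeR gave 0 to 1. DESeq2 without control 2 called 158 genes and 1 replication gene, RRM2 (log2 0.99). The median log2 fold change of the 47 genes ran between −0.053 and 0.084 over the libraries left out. Members with every bile acid library above every control numbered 3 on the deposited FPKM and 5 to 9 with a library left out, where 4.32% and 7.05% to 13.2% of all genes did. Members below numbered 0 with RLE scaling, 2 on the deposited FPKM and 2 to 4 with a library left out, where 4.85%, 5.98% and 6.35% to 13.2% of all genes did. The log2 ratio of CDT1 to GMNN ran between −0.098 and 0.32 with a library left out. Whether replicate numbers pair the libraries could not be settled: the deviations of same-numbered libraries correlated at 0.307, 0.382 and 0.0979. Bile acid 1 and bile acid 2 correlated best with the control of the same number, and bile acid 3 with control 1, at 0.144. The deviations are from means of 3 libraries, and control 2 stands apart among the controls, so these correlations cannot decide it. With the replicate block edgeR called 0 genes, and the member median was 0.017.

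Signs were followed in 48 named genes, some of the members and some related genes, under 19 alternatives. Members outside these 48, PCNA among them, are not listed here, though 18 of the 47 members changed sign without control 2. Of the 912 gene values 48 changed sign, 3 of them with all libraries. These were CDC6 to −0.0066 and LIG1 to −0.022 without the length trend, and LIG1 to −0.022 with the block as well. With single libraries left out, log2 fold changes ran between these ends: CDC6 −0.090 to 0.23, CDT1 −0.52 to 0.17, GMNN −0.68 to 0.084, MCM2 −0.057 to 0.68, MCM7 −0.36 to 0.26, GINS2 −0.63 to 0.088, POLA2 −1.49 to 0.27, PRIM1 −0.094 to 0.51, POLD2 −0.69 to 0.0080, RFC4 −0.62 to 0.032, RPA2 −0.43 to 0.11, RPA3 −0.94 to 0.19 and FEN1 −0.15 to 0.47. Among related genes they were RNASEH2A −0.95 to 0.21, NME1 −1.51 to 0.43, DTYMK −1.11 to 0.014, NASP −0.49 to 0.20, ATAD2 −0.073 to 0.45, DNMT1 −0.040 to 0.49, CCNE1 −0.93 to 0.077, BIRC5 −0.77 to 0.077 and AURKB −0.59 to 0.22. Except in CDC6 and FEN1, the end of the other sign is the value without control 2. DESeq2 without it gave CDT1 0.17, GMNN 0.083, MCM2 −0.058, MCM7 0.26, GINS2 0.087, POLA2 0.27, PRIM1 −0.095, POLD2 0.0068, RFC4 0.030, RPA2 0.11, RPA3 0.19, RNASEH2A 0.20, NME1 0.43, DTYMK 0.013, NASP 0.20, ATAD2 −0.074, DNMT1 −0.041, CCNE1 0.075, BIRC5 0.076 and AURKB 0.22. The cause was not tested. Each group has 3 libraries, and every member had at least 237 counts in every library.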
